A study of Mus musculus with 6 samples.

Results

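Frame-shifting skipped exons are the subject here: exons of 52 to 250 nt whose length is not divisible by 3, so that the reading frame downstream differs between the transcript that includes the exon and the one that skips it. They were taken from the skipped exon table of the splicing output by length alone, without any measured value. This gave 14442 events at 13027 distinct exons of 7294 genes, which is 49.6% of the 29134 skipped exon events and 35.3% of all 40961 splicing events of 5 types. Their lengths were centred on 113 nt (median), and 7268 left a remainder of 1 and 7174 a remainder of 2 when divided by 3.

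RNA was taken from the hippocampus of male C57BL/6 J mice that had received adeno-associated virus (AAV) in the CA1 area of both sides at 8 weeks of age. The 3 control libraries, which the sample labels call wild type, came from mice given a virus with control shRNA. The 3 L-DL KD libraries came from mice given a virus expressing 4 shRNAs from H1 promoters against L-DL (hnRNP D-like, gene Hnrnpdl), an RNA-binding protein of the hnRNP family, with a zsGreen reporter under the CamkIIα promoter, which is active in excitatory neurons. The control virus was injected at the higher titre, the labels give the genotype of the second group as knockdown but describe it as -/- elsewhere, and RNA came from the hippocampus although the injection was aimed at CA1. Nothing in the sources says that each library is a separate mouse. Poly(A) RNA was sequenced as 150 nt read pairs, with 16052529 to 17913064 reads counted on genes per library.

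Whole codons are read in steps of 3 bases, and an exon that breaks these steps usually brings a stop codon into frame soon after the junction. Transcripts whose stop lies well upstream of the last exon junction are commonly removed by nonsense-mediated decay (NMD), a quality control pathway coupled to translation. Many RNA-binding proteins use this to limit their own level: a so-called poison exon, silent when skipped, gives a premature stop when included. For constitutive coding exons the roles are the other way round, and skipping gives the premature stop. In neurons some frame-shifting exons instead switch between protein ends, and pairs of such exons can be used one at a time, as in the AMPA receptor genes.

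The targeted gene was looked at first. Counts of Hnrnpdl were 2862, 3120 and 2689 in the controls against 3939, 2680 and 2904 in the L-DL KD-labelled libraries. The groups overlapped, the log2 fold change was 0.03 (SE 0.125), and the adjusted p was 0.898 from edgeR's quasi-likelihood test, so the gene count did not separate the libraries by their label. Every direction below is therefore that of the L-DL KD-labelled libraries against the controls. This count covers the long (L-DL) and short isoforms together. The paper assessed the knockdown of L-DL in the hippocampus as protein, by immunoblotting.

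The sequences of 8 exons from among those with small p-values are given first, because the length of each sets the reading frame of the 2 forms that are compared. They are exon sequences on the strand of the gene, from GENCODE M21 transcripts on GRCm38, 5′ to 3′ in lower case. Exon 4 of Eif4a2 (140 nt, chr16:23109120-23109259, plus strand) codes for part of an RNA helicase of translation initiation. Exon 9 of Sept5 (97 nt, chr16:18623321-18623417, minus strand) codes for part of a septin of presynaptic vesicles. Exon 5 of Oaz2 (86 nt, chr9:65688821-65688906, plus strand) belongs to an antizyme that holds back polyamine synthesis. Exon 3 of Slc17a7 (119 nt, chr7:45169817-45169935, plus strand) belongs to the transporter that loads glutamate into synaptic vesicles. Exon 12 of Hnrnpul2 (74 nt, chr19:8830888-8830961, plus strand) belongs to an hnRNP U-like RNA-binding protein. The Luc7l exon (71 nt, chr17:26253974-26254044, plus strand) lies between coding exons of a U1 snRNP-associated splicing factor. With the flanks of this event it is in none of the complete annotated coding transcripts. Exon 73 of Dync1h1 (154 nt, chr12:110665083-110665236, plus strand) belongs to the heavy chain of cytoplasmic dynein. Exon 15 of Trak2 (106 nt, chr1:58906706-58906811, minus strand) belongs to an adaptor that couples mitochondria to motor proteins.
Eif4a2 exon 4: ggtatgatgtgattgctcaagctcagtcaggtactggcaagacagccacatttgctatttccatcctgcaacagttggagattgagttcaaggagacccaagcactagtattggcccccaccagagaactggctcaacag
Sept5 exon 9: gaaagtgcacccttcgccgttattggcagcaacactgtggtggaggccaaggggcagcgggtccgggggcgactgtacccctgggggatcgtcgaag
Oaz2 exon 5: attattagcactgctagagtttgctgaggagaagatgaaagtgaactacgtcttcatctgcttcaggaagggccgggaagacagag
Slc17a7 exon 3: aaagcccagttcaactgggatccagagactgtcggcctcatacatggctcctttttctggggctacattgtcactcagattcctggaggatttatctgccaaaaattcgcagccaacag
Hnrnpul2 exon 12: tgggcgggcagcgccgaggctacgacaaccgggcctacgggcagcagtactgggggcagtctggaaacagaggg
Luc7l exon: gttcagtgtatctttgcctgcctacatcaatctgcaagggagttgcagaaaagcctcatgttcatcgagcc
Dync1h1 exon 73: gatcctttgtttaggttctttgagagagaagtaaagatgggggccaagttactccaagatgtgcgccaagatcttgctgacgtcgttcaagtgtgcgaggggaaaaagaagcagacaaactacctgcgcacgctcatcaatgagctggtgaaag
Trak2 exon 15: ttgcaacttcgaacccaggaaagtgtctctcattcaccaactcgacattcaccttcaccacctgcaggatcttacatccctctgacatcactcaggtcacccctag

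For Sept5, Hnrnpul2 and Dync1h1, where skipping brings a premature stop into the next exon, the skipping form is shown up to its stop. Each line below starts with the last 12 bases of the upstream exon, goes on into the exon downstream of the skipped one, and ends with the stop codon in capitals.
Sept5 without exon 9: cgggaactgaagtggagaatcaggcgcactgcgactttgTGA
Hnrnpul2 without exon 12: gccaaggctatgggctaccgTAA
Dync1h1 without exon 73: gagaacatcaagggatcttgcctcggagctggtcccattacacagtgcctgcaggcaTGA

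Without its exon 9, the Sept5 reading frame met a stop 42 bases into this stretch and 209 nt before the last junction. The Hnrnpul2 frame ended after 23 bases, 97 nt before the last junction, and the Dync1h1 frame after 60 bases, 392 nt before it. A stop more than 50 nt before the last junction is called premature from here on. Following the frame of annotated coding transcripts in this way placed 6726 of the 14442 members (46.6%) in the class whose skipping gives a premature stop, with the stop in the very next exon for 5775 of them (85.9%). Inclusion gave a premature stop for 1035 members (7.17%), inside the exon itself for 810 (78.3%). The other classes were 5′ UTR exons (1080), exons whose skipping gave another, not premature stop (1270), exons with a start or stop codon (745), exons with coding transcripts for both forms (436), exons whose inclusion gave another stop (107), 3′ UTR exons (20), exons not annotated (28) and exons with flanks found in no usable coding transcript (2995). Among the 9948 frame-preserving skipped exons of the same length, 37 (0.372%) would give a premature stop when skipped.

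Members were mostly included exons. PSI, the share of transcripts that include the exon, was computed for each library from the reads across its inclusion and skipping junctions, each divided by the effective length of its form. Of the 13831 members with a value in all control libraries, 10275 (74.3%) had a control PSI over 0.9, 2380 (17.2%) lay between 0.1 and 0.9, and 1176 (8.5%) were under 0.1. The median control PSI was 0.986 in members and 0.982 in frame-preserving exons. The 2 main frame classes lay at opposite ends of the scale: the median control PSI was 0.994 where skipping gives the premature stop and 0.0478 where inclusion does. In both classes, then, the form with the premature stop was the minor one in the control hippocampus. At the edges of the length range, frame-shifting exons of 47 to 51 nt, just outside, had a median control PSI of 0.981 and those of 52 to 56 nt, just inside, one of 0.978, while the 44 longest members had 0.985 and the 52 exons just above the upper limit 0.969.

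Reads across member junctions limited what could be tested. An event was tested where it had a mean of at least 20 junction reads per library and at least 1 of each form. This left 4784 member events (33.1%) at 4497 exons of 3272 genes. Of the 9658 others, 2822 had too few reads, 6544 had under 1 skipping read per library on average, and 292 had under 1 inclusion read. Summed over members, the control libraries had 2470270 to 2526490 junction reads and the L-DL KD-labelled libraries 2618130 to 2925557. The part of this difference in depth was not tested. A member could also pass the minimum through 1 group alone: 275 tested members had no skipping read in any control library and 136 had none in any library labelled L-DL KD. Such members had to differ, and their counts are given apart below.

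Cell type markers moved with the groups and stand beside every result that follows. All 8 microglia markers were higher in the L-DL KD-labelled libraries, where their summed level was 2377 to 3022 CPM (counts scaled to library size) against 1122 to 1399 CPM in the controls. Of 8 neuron markers 7 were lower and 1 was higher, with sums of 4769 to 5504 CPM against 8029 to 8538 CPM. Of 6 astrocyte markers 3 were lower and 1 was higher, 1 of 6 oligodendrocyte markers and 2 of 4 endothelial markers were higher, and of 4 markers of CA1 neurons 2 were lower and 1 was higher. None of the 4 markers of T and B cells and none of the 3 of choroid plexus passed the test, although choroid plexus sums reached 4464 CPM in the controls and 4996 CPM in the other group. No marker was at 0 in all libraries. In such bulk samples fewer cells of a type and less RNA per cell cannot be told apart, and the part of cell composition in the PSI values was not tested.

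The first question was which of these exons differed in inclusion between the groups. The inclusion and skipping counts were fitted for all 18829 events together by edgeR's quasi-likelihood test, and "rose" and "fell" are kept for an adjusted p under 0.05. At this threshold 12 members of 11 genes were called, 9 with a lower and 3 with a higher PSI. This was 0.251% of the tested members, near the background of 0.255% of all tested events (0.186% lower and 0.069% higher) and 0.236% of the frame-preserving exons. The groups did not overlap in any of the 12, as was so for 16% of tested members and 18.4% of all tested events. The called exons had large counts, with a median of 781 junction reads per library against 99.1 over all tested members. These calls rested on the test and on the fit over all event types: none passed by limma on the log2 ratio of the forms, and none with the skipped exons alone in the fit. By position in the table, none passed without control 1, control 3 or L-DL KD 2, 9 of the 12 passed without L-DL KD 1 and 3 without L-DL KD 3, and without control 2 the 1 exon that passed was not among the 12.

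The largest change was in Luc7l (ENSMUSG00000024188), the U1 snRNP-associated factor that helps to choose 5′ splice sites. PSI of its 71 nt exon was 0.144, 0.148 and 0.0220 in the control libraries and 0.620, 0.593 and 0.584 in the L-DL KD-labelled libraries. The exon was thus a minor form in every control and the main form in every library of the other group, and the third control stood lowest. The mean rose from 0.105 ± 0.0717 to 0.599 ± 0.0190 (SD, n = 3; adjusted p = 0.0377), on 85 to 125 junction reads per library. Inclusion shifts the frame to a stop in a later exon, 805 nt before the last junction. The gene count of Luc7l was level between the groups, with a log2 fold change of -0.04 (SE 0.0878, adjusted p = 0.792).

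Eif4a2 (ENSMUSG00000022884), a helicase subunit of the cap-binding complex, held 2 of the 12 called exons, and they moved in opposite directions. The 140 nt exon 4 had a PSI of 0.978, 0.982 and 0.976 in the controls and 0.920, 0.913 and 0.894 in the L-DL KD-labelled libraries, a fall of the mean from 0.979 ± 0.00292 to 0.909 ± 0.0132 (SD, n = 3; adjusted p = 0.00977). Its skipping reads numbered 28 to 34 per control library and 90 to 97 in the other group. An annotated coding transcript exists for both forms. The 107 nt exon near the 3′ end (chr16:23112351-23112457), which holds a stop codon and so gives another protein end, had a PSI of 0.0150, 0.0195 and 0.0184 in the controls against 0.0602, 0.0708 and 0.104. It rose from 0.0176 ± 0.00230 to 0.0782 ± 0.0227 (SD, n = 3; adjusted p = 0.0127). Both shifts favoured the minor form, while the gene count fell by 0.46 on the log2 scale (SE 0.0695, adjusted p = 0.00234).

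Slc17a7, Sept5 and Epn1 were also among the hosts. No called exon lay in a gene of the synapse list that is counted below. Slc17a7 (ENSMUSG00000070570), also known as VGLUT1, had a PSI of 0.971, 0.967 and 0.969 for exon 3 in the controls and of 0.920, 0.896 and 0.895 in the other group. The controls lay within a narrow band and all 3 libraries labelled L-DL KD lay below it. The mean fell from 0.969 ± 0.00192 to 0.904 ± 0.0144 (SD, n = 3; adjusted p = 0.0296), and without the exon the frame meets a stop 616 nt before the last junction. Sept5 (ENSMUSG00000072214) had PSI values of 0.992, 0.985 and 0.991 for exon 9 in the controls against 0.959, 0.956 and 0.952, a fall from 0.990 ± 0.00364 to 0.955 ± 0.00353 (SD, n = 3; adjusted p = 0.0233). Skipping reads of this exon numbered 9 to 16 per control library and 51 to 58 in the other group. Epn1 (ENSMUSG00000035203), an adaptor of clathrin-mediated endocytosis, fell at a 104 nt exon of its 5′ UTR (chr7:5082018-5082121) from 0.999 ± 0.00144 to 0.969 ± 0.00658 (SD, n = 3; adjusted p = 0.0497). That change rested on 0, 1 and 0 skipping reads in the controls and 9, 11 and 7 in the other group.

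Exons of transport and RNA-binding genes fell as well. Exon 73 of Dync1h1 (ENSMUSG00000018707) had no skipping read in any control and 8, 18 and 30 in the L-DL KD-labelled libraries, on 760 to 965 junction reads. A count of 0 in the control group is a floor, and PSI went from 1 in each control to 0.980, 0.957 and 0.924 (adjusted p = 0.0497). Exon 12 of Hnrnpul2 (ENSMUSG00000071659) had 2, 2 and 0 skipping reads in the controls and 22, 14 and 20 in the other group, and its PSI fell from 0.997 ± 0.00235 to 0.960 ± 0.0103 (SD, n = 3; adjusted p = 0.0341). In both genes the skipping form carries the early stops printed above. The skipping forms were small shares of the transcripts in all libraries.

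The remaining calls were in genes of metabolism, protein turnover and chromatin. Slc25a23 (ENSMUSG00000046329), a calcium-regulated ATP-Mg/phosphate carrier of mitochondria, had a PSI of 0.974, 0.960 and 0.979 at a 116 nt exon (chr17:57053547-57053662) in the controls and of 0.853, 0.797 and 0.826 in the other group (adjusted p = 0.0104). Oaz2 (ENSMUSG00000040652) fell at exon 5 from 0.983, 1 and 0.977 to 0.890, 0.841 and 0.782 (adjusted p = 0.0287). Skipping of this exon moves the stop to a place that is not premature, since it lies 37 nt beyond the last junction. Rnf14 (ENSMUSG00000060450), a RING-type ubiquitin ligase, fell at its 152 nt exon 5 from 0.925, 0.924 and 0.938 to 0.824, 0.762 and 0.745 (adjusted p = 0.0235). Morf4l2 (ENSMUSG00000031422), a subunit of the NuA4 acetyltransferase complex, rose at a 77 nt exon of its 5′ UTR (chrX:136735546-136735622) from 0.363, 0.372 and 0.328 to 0.551, 0.590 and 0.656 (adjusted p = 0.0375). For Morf4l2 the protein is the same in both forms, and only the leader of the transcript differs.

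**Figure D1:**
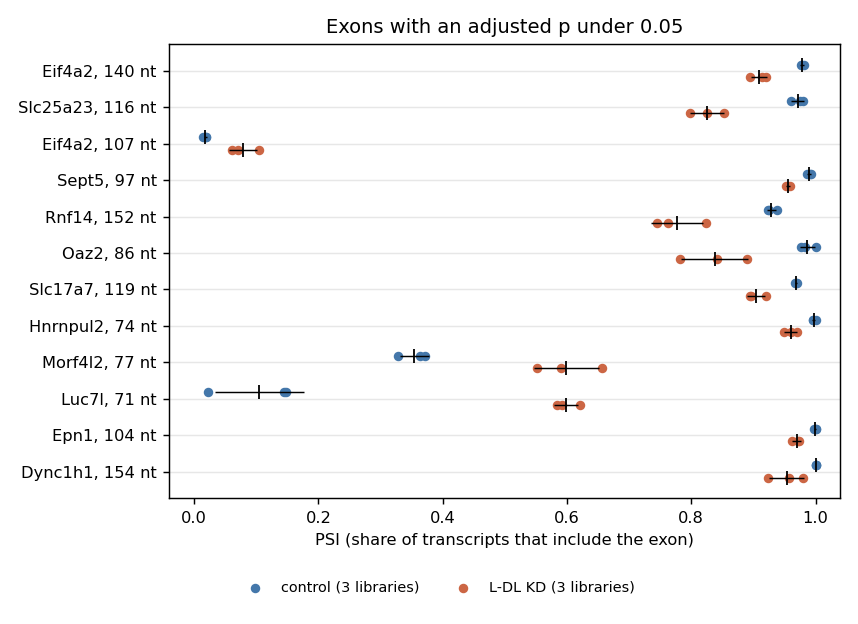
PSI of the 12 exons with an adjusted p under 0.05, with each exon on its own line (gene and length in nt), 1 point per library, control libraries above and libraries labelled L-DL KD below, and a black mark and bar for the mean and SD of 3 libraries. The groups lie apart on every line; Luc7l moves furthest (0.105 to 0.599) and most of the falling exons start near a PSI of 1.

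A wider set was taken at an unadjusted p under 0.001. It held 38 member events at 37 exons of 35 genes (0.794% of tested members against 0.977% of all tested events and 1.18% of frame-preserving exons). PSI was lower in 31 of them and higher in 7, and the share with a lower PSI was 81.6% (95% Wilson interval 66.6% to 90.8%, counting error over events only). Over all tested events with this p, 0.738% had a lower and 0.239% a higher PSI, a share of 75.5% lower. The size of the difference ran from 0.0121 to 0.494 with a median of 0.110, and 21 of the 38 differed by at least 0.1. Those 26 beyond the called exons had adjusted p-values of 0.0516 to 0.102 and are given as values.

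Stxbp2, a Munc18-type partner of syntaxins, had the next highest gain. PSI of its 82 nt exon 3 (chr8:3632500-3632581) was 0.545, 0.385 and 0.575 in the controls and 0.753, 0.827 and 0.874 in the L-DL KD-labelled libraries. Gnl2, a nucleolar GTPase of large ribosomal subunit assembly, had 0.800, 0.716 and 0.725 against 0.980, 0.924 and 0.933 at its 140 nt exon 4. In both genes skipping gives a premature stop, so the coding form had the higher share in the second group. Exon 15 of Trak2 was at 0.868, 0.870 and 0.798 against 0.958, 0.948 and 0.943, and the 113 nt exon of Capzb, which sets the protein end of the actin capping protein, was at 0.111, 0.117 and 0.104 against 0.211, 0.187 and 0.185. None of these 4 passed the adjusted threshold. A lack of overlap between the groups was a condition for naming them.

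The largest losses outside the called exons were in genes of several kinds. Chrd, the BMP antagonist chordin, had a PSI of 0.801, 1 and 0.911 at its 94 nt exon 17 in the controls and of 0.447, 0.511 and 0.322 in the other group. Fkbp7, a prolyl isomerase of the endoplasmic reticulum, had 0.361, 0.421 and 0.273 against 0.0488, 0 and 0.0256 at a 116 nt exon whose inclusion gives a stop within the exon, on only 10 to 48 reads per library. Coq8b, of coenzyme Q synthesis, was at 0.798, 0.848 and 0.930 against 0.586, 0.579 and 0.539 for its 142 nt exon 10. Control values of Chrd and Coq8b were spread widely. That no control reached the other group was a condition for naming these exons. Unc80, a subunit of the NALCN sodium leak channel, was at 0.760, 0.764 and 0.774 against 0.620, 0.524 and 0.542, and Shisa4 was at 0.872, 0.856 and 0.886 against 0.769, 0.736 and 0.654. Neighbouring Anks3 exons of 172 and 199 nt both had lower PSI, but they share their skipping reads (0, 0 and 1 in the controls and 16, 15 and 10 in the other group), so they count as 1 observation.

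Several housekeeping and neuronal genes showed small shares of skipping that the controls almost lacked. Park7, the oxidative stress protein DJ-1, had no skipping read of its 70 nt exon 6 in the controls and 9, 8 and 8 in the other group, which is a PSI of 0.988, 0.988 and 0.987. Prkag1, an AMPK subunit, had 0 skipping reads in each control and 7, 8 and 10, Cluh, which binds mRNAs of mitochondrial proteins, had 0 against 10, 5 and 9, and Tm2d2 had 0 against 10, 7 and 4. Eno2, the neuronal enolase, had 0, 2 and 0 against 10, 7 and 21. Such exons could differ in 1 direction only. Of the 275 tested members with no skipping read in the controls, 168 had a lower PSI at an unadjusted p under 0.05 and 5 at a p under 0.001. Of the 136 with none in the L-DL KD-labelled libraries, 90 had a higher PSI at the first threshold and 0 at the second.

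The flip and flop exons of Gria2 are a pair of members in the same gene. Gria2 encodes the GluA2 subunit of AMPA receptors, and these exons of 115 nt each are used one at a time to give receptors of different kinetics. Gria2 was named by the rule for its flip exon, and the flop exon was added after values were seen. Flip (chr3:80690404-80690518, minus strand) and flop (chr3:80691320-80691434) share 79 of 115 bases. Below, the capitals in flip mark the stop codon that comes into frame when flip follows flop in 1 transcript.
Gria2 flip: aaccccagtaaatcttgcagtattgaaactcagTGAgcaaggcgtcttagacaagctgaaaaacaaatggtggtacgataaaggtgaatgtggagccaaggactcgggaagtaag
Gria2 flop: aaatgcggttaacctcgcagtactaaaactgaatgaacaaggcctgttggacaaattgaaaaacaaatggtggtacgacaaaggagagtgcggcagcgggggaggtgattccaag

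Reads across the junctions of flip numbered 432, 406 and 396 in the controls and 182, 168 and 93 in the L-DL KD-labelled libraries, and those of flop 652, 562 and 463 against 528, 476 and 437. Flip reads did not overlap between groups, and flop reads did. In the event of mutually exclusive exons that sets flop against flip, the flop share was 0.601, 0.581 and 0.539 in the controls and 0.744, 0.739 and 0.825 in the other group (adjusted p = 0.0685). Another event of this type in Gria2 had a PSI of 0.281, 0.282 and 0.256 against 0.286, 0.286 and 0.304 (adjusted p = 0.875). Of the 4 skipped exon events of the pair, the flip event that is flanked by flop was at 0.254, 0.323 and 0.324 against 0.164, 0.152 and 0.110 (adjusted p = 0.0781). One flank of that event is the partner exon, so its PSI is not a share of transcripts with both exons. Transcripts that skip both exons, which lose the frame, gave 0, 0 and 3 reads in the controls and 6, 7 and 15 in the other group. The gene count fell by 0.54 on the log2 scale (SE 0.0744, adjusted p = 0.00153).

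**Figure D2:**
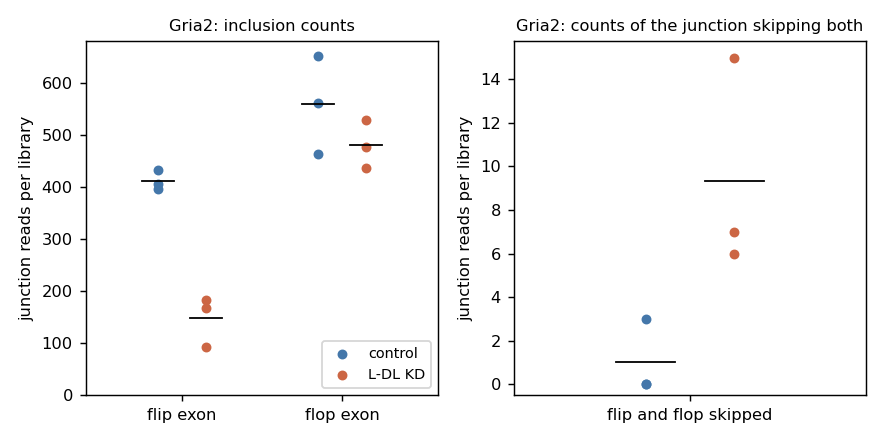
Junction reads of the Gria2 flip and flop exons (left) and of the junction that skips both (right), with 1 point per library and a black line for the mean of 3. Flip falls from 396 to 432 reads in the controls to 93 to 182, flop overlaps between the groups, and reads that skip both exons number 0 to 3 against 6 to 15.

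At an unadjusted p under 0.05 there were 745 member events (15.6% of tested members, against 13.3% of all tested events and 17.8% of frame-preserving exons). PSI was lower in 458 (9.57% of tested members, 8.3% of all events) and higher in 287 (6% of tested members, 4.96% of all events). The share with a lower PSI, 61.5% (57.9% to 64.9%), stood beside 65.7% among frame-preserving exons and 62.6% among all events. With TMM factors for the junction columns it was 520 of 754. The median size of the difference was 0.0579 in members and 0.0881 in frame-preserving exons. A difference of at least 0.1 with no overlap between the groups was found for 280 tested members (5.85%), against 8.26% of all events and 10.5% of frame-preserving exons. None of these shares was tested against another.

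Directions were also counted by level, with members grouped by the mean PSI of all 6 libraries, since the control PSI is itself a term of the difference. Over a mean PSI of 0.9, 314 of 481 members with a p under 0.05 had a lower PSI, between 0.1 and 0.9 it was 113 lower and 84 higher, and under 0.1 it was 31 lower and 36 higher. Grouped by control PSI the middle range turned round, to 72 lower and 116 higher. Leaving out Gria2 and members that had a form with no read in a whole group, the numbers over a mean PSI of 0.9 were 147 lower and 78 higher, and at a p under 0.001 they were 12 lower and 0 higher. An exon at a PSI near 1 has little room to gain and one near 0 little room to lose, and the part of this limit in these counts was not tested. Length made less difference, with 62.7% lower for exons under 100 nt, 63.3% for those from 100 to under 150 nt and 56.8% for longer ones, and exons leaving a remainder of 1 or 2 gave 61.2% and 61.8%. Among 919 genes with 2 or more tested member exons, 53 had at least 2 with a p under 0.05, of which 26 had only lower, 11 only higher and 16 mixed differences, as in Eif4a2.

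**Figure D3:**
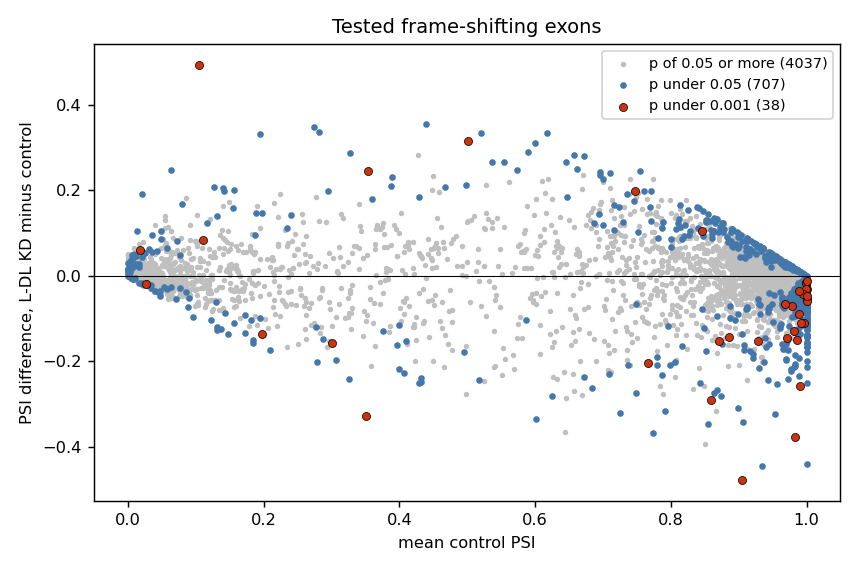
PSI difference (libraries labelled L-DL KD minus controls) against mean control PSI for 4782 tested members with a PSI in every library, 1 point per event, coloured by the unadjusted p. All 23 red points (p under 0.001) over a control PSI of 0.9 lie below 0, of which 5 had no skipping read in any control and could lie nowhere else. The control PSI enters both axes, and the edges of the cloud are the limits that the scale from 0 to 1 sets.

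The second question was what the changes do to the reading frame. At a p under 0.001, 18 members were of the class whose skipping gives a premature stop, and 16 of them had a lower PSI, hence more of the premature form. The exceptions were Gnl2 and Stxbp2. Another 4 were of the class whose inclusion gives it: PSI was higher in Luc7l and lower in Srsf9, Fkbp7 and the Gria2 flip event flanked by flop. That last event stands for forms with 1 exon of the pair more than for both together, and the same exon is counted the other way in the first class, through its event with both exons skipped. The premature form had the higher share in 17 of these 22, but some could move no other way: leaving out Gria2 and members that had a form with no read in a whole group, it was 12 of 16. At a p under 0.05 the first class had 333 members (16.6% of those tested, 202 lower and 131 higher) and the second 73 (12.5%, 43 lower and 30 higher). Over all tested events 13.3% had such a p. The share with a lower PSI was 60.7% in the first class and 58.9% in the second, beside 62.6% over all events. The premature form was higher in 232 of 406 (57.1%), and over all tested members of both classes in 1367 of 2587 (52.8%). With the same members left out it was 138 of 256 at a p under 0.05. The share of 57.1% depended on single libraries: it was 51.2% without the first control and 65.5% without the first library labelled L-DL KD.

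The level of the premature forms was compared as a mean and as a median over exons. Over the 2002 tested members whose skipping gives a premature stop, the mean share of the skipping form was 6.07%, 6.62% and 6.11% in the control libraries and 6.30%, 6.85% and 6.79% in the L-DL KD-labelled libraries, so the groups overlapped. The medians were 1.86%, 2.25% and 1.72% against 2.37%, 2.96% and 2.67% and did not overlap. Over the 585 members whose inclusion does, the mean share of the inclusion form was 19.0%, 19.0% and 18.7% against 19.0%, 17.7% and 18.4%, which overlapped, and the medians were 6.08%, 6.55% and 6.26% against 5.88%, 5.59% and 5.53%, which did not. By the medians the premature form was thus higher in the first class and lower in the second, with no test run on either. These medians include members that passed the minimum through 1 group alone. Over all tested members, 275 had no skipping read in the controls and 136 had none in the L-DL KD-labelled libraries. The part of this imbalance in the medians was not tested. In the other classes with at least 50 tested members, the share with a p under 0.05 ran from 12.5% in 5′ UTR exons (67 of 537) to 19.8% where skipping gives another stop (79 of 398). Over all tested events it was 13.3%, with 4.96% higher. Of 11 tested 3′ UTR exons, 3 had a p under 0.05 and all 3 were higher, among them the 104 nt exon of Srsf2.

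**Figure D4:**
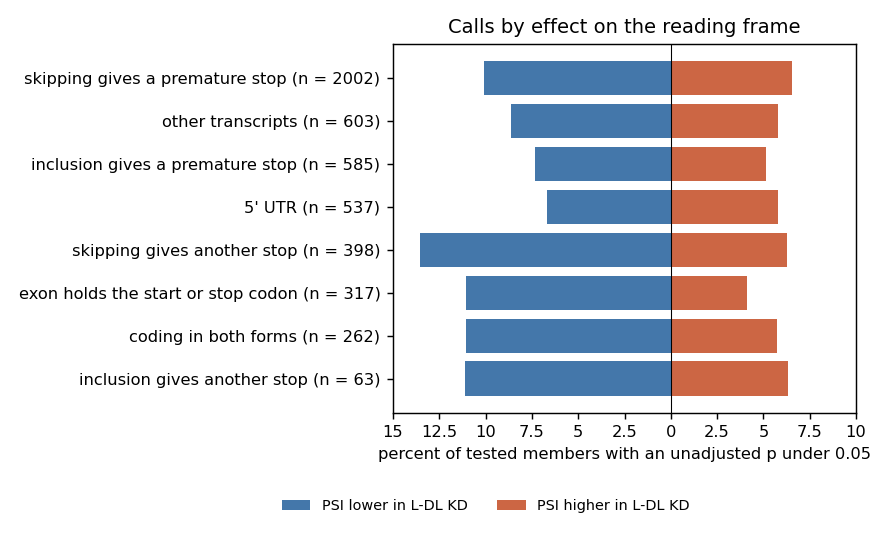
Percent of tested members with an unadjusted p under 0.05 in each class of effect on the reading frame with at least 50 tested members, PSI lower in the L-DL KD-labelled libraries to the left and higher to the right. Lower PSI is the more frequent direction in every class shown, from 36 of 67 in 5′ UTR exons to 35 of 48 in exons with a start or stop codon.

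Splicing regulators, many of which carry poison exons, were looked at as a list. Of 91 genes 66 held a member, and 100 events were tested. Of these 20 (20%) had a p under 0.05, 14 lower and 6 higher, beside 15.6% of tested members and 13.3% of all events. The median PSI difference was 0.00154 beside -0.00172 over all events. Apart from Luc7l no event of this list was called, and Hnrnpul2, called above, is not in the list. Srsf9, an SR protein, had a PSI of 0.194, 0.167 and 0.230 at a 79 nt exon whose inclusion gives a premature stop in the controls and of 0.0595, 0.0734 and 0.0519 in the other group (adjusted p = 0.0595). The 67 nt exon of Clk4, a kinase of SR proteins, was at 0.143, 0.0975 and 0.141 against 0.441, 0.220 and 0.348 (adjusted p = 0.14), and its inclusion also gives a premature stop. Rbm5 was at 0.987, 0.988 and 0.976 against 0.845, 0.922 and 0.933 (adjusted p = 0.188). These 3 exons were named for their small p-values, and the groups lay apart in each, as in 16% of tested members. The 2 poison exon events of Srsf9 and Clk4 went in opposite directions.

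Among named regulators outside the 4 smallest p, the 3′ UTR exon of Srsf2 had 0.0487, 0.114 and 0.0548 in the controls and 0.161, 0.137 and 0.163 (adjusted p = 0.247). The 80 nt exon of Snrnp70, which encodes the U1-70K protein, had 0.0960, 0.0723 and 0.0642 against 0.0538, 0.0464 and 0.0473 (adjusted p = 0.31). For Srsf1, Srsf11, Clk1, the 161 nt exon of Clk4, Hnrnpa2b1, Hnrnpd, Hnrnpf, Hnrnph1, Hnrnph3, Hnrnpk, Hnrnpl, Hnrnpll, Hnrnpm, Hnrnpr, Hnrnpul1 and the 136 nt exon of Hnrnpul2, adjusted p-values were 0.4 to 0.994. The control means of these exons covered the whole scale, from 0.00542 in Srsf11 to 1 in Hnrnpk. Hnrnpdl itself and Tra2b had 0 member events. Of the 90 list genes tested by count 12 were higher and 17 lower, beside 15.6% higher and 15% lower of all genes tested.

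Factors of NMD were few. Of 15 genes 9 held members, 8 events were tested and 1 (12.5%) had a p under 0.05, beside 15.6% of tested members and 13.3% of all tested events. It was the 107 nt exon 62 of Smg1, the kinase that phosphorylates UPF1, with PSI values of 1, 1 and 0.992 in the controls and 0.991, 0.971 and 0.986 (adjusted p = 0.375). Another Smg1 exon, Smg9 and Upf2 had adjusted p-values of 0.544, 0.381 and 0.707. By gene count 2 of the 15 were higher and 1 lower, beside 15.6% higher and 15% lower of all genes tested. The lower one was Upf2, with a log2 fold change of -0.31 (adjusted p = 0.0261).

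Synaptic genes had 58 tested events, of which 9 (15.5%) had a p under 0.05, 6 lower and 3 higher. This was near the 15.6% of tested members, beside 13.3% of all tested events. The 9 include the overlapping flip and flop events of Gria2, which share junction reads. None of the 58 events was called. The 92 nt exon of Ppfia2, a liprin scaffold of the presynaptic active zone, was at 0.892, 0.877 and 0.889 in the controls and 0.770, 0.724 and 0.737 in the other group (adjusted p = 0.0652). It holds the stop codon of its transcript. Exon 18 of Dlg4 (110 nt, chr11:70043658-70043767), which encodes the postsynaptic scaffold PSD-95, was at 0.984, 0.991 and 0.990 against 0.975, 0.956 and 0.970 (adjusted p = 0.133), and skipping gives a premature stop. A paralog of Ppfia2, Ppfia4, had 3, 2 and 4 skipping reads in the controls and 0 in each other library (adjusted p = 0.157). By gene count 55 of 93 genes of the list were lower and 4 higher, with a median log2 fold change of -0.36. Of all genes tested 15% were lower and 15.6% higher.

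Ion channels, pumps and calcium genes had 21 tested events, and 9 of these (42.9%) had a p under 0.05, 4 lower and 5 higher. This stood beside 15.6% of tested members and 13.3% of all tested events (8.3% lower and 4.96% higher). None of the 9 had a p under 0.001. Atp2b1, a calcium pump of the plasma membrane, was at 0.891, 0.904 and 0.889 at a 154 nt exon in the controls and 0.842, 0.751 and 0.780 in the other group (adjusted p = 0.114), and inclusion gives the protein another end. Cacnb4, a calcium channel subunit, had 0.227, 0.175 and 0.423 against 0.655, 0.524 and 0.692 at an exon with its start codon (adjusted p = 0.284), on 16 to 46 reads per library. Clcn3, a chloride/proton exchanger, had 0.785, 0.717 and 0.836 against 0.5, 0.569 and 0.646 (adjusted p = 0.288), and Ryr3, a calcium release channel, had 1, 0.908 and 1 against 0.728, 0.889 and 0.709 (adjusted p = 0.296). These 4 exons were named for the smallest p of the list, and the groups lay apart in each, as in 16% of tested members. The directions were mixed. By gene count 31 of 57 genes of the list were lower and 5 higher, beside 15% lower and 15.6% higher of all genes tested.

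Cytoskeletal genes had 29 tested events, 6 of them (20.7%) with a p under 0.05, 3 lower and 3 higher. This stood beside 15.6% of tested members and 13.3% of all tested events. Map6, which stabilises neuronal microtubules, was at 0.846, 0.923 and 0.945 in the controls and 0.713, 0.843 and 0.746 (adjusted p = 0.238), and the groups just failed to overlap. Tpm3, a tropomyosin, was at 0.0744, 0.0960 and 0.0600 against 0.120, 0.138 and 0.118 at a 79 nt exon near its end (adjusted p = 0.243). Dync1i2, an intermediate chain of dynein, had a PSI of 0.0204, 0.0501 and 0.0150 against 0.0107, 0.00654 and 0.00420 at an exon whose inclusion gives a premature stop (adjusted p = 0.321). By count 12 of 58 genes were higher and 19 lower, beside 15.6% higher and 15% lower of all genes tested.

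The third question was whether the genes that carry these exons differed in level. Of all 17621 genes tested by count 30.5% were called, 15.6% higher and 15% lower. Of the 3238 host genes of tested members 517 (16%) were higher and 643 (19.9%) lower. Scaled by library size in place of TMM, the majority turned round, with 597 higher and 581 lower. Of the 35 hosts of members with a p under 0.001, 3 were higher (8.57%) and 8 lower (22.9%), and of the 11 hosts of called exons 0 were higher and 5 lower: Rnf14, Slc17a7, Eif4a2, Epn1 and Slc25a23. Among hosts of the exons that were called or had the largest differences, the lowest log2 fold changes were -0.77 in Rnf14 (SE 0.0761, adjusted p = 0.000388), -0.54 in Gria2 and -0.49 in Slc17a7 (SE 0.137, adjusted p = 0.0281). The highest were 1.17 in Fkbp7 (SE 0.248, adjusted p = 0.00958), 1.12 in Trak2 (SE 0.105, adjusted p = 0.000326) and 0.90 in Shisa4 (SE 0.0714, adjusted p = 0.000193).

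Gene level and premature form were also set side by side. For the members with a p under 0.05 whose premature form had the higher share, the hosts had a median log2 fold change of -0.04, with 54 of 220 lower and 37 higher. Where the premature form had the lower share, the median was 0.00, with 29 of 167 lower and 27 higher. Over all tested members, whatever their p, these numbers were 225 of 1189 lower and 187 higher, and 209 of 1095 lower and 179 higher. Of all genes tested 15% were lower and 15.6% higher. At a p under 0.001, 3 of 17 hosts were lower and 1 higher where the premature form had the higher share. In this set the counts of Slc17a7, Eno2 (log2 fold change -0.32, adjusted p = 0.0262) and Gria2 were lower and that of Shisa4 was higher. No change was called for Luc7l, Sept5 (0.07, adjusted p = 0.499) or Dync1h1 (0.07, adjusted p = 0.622).

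**Figure D5:**
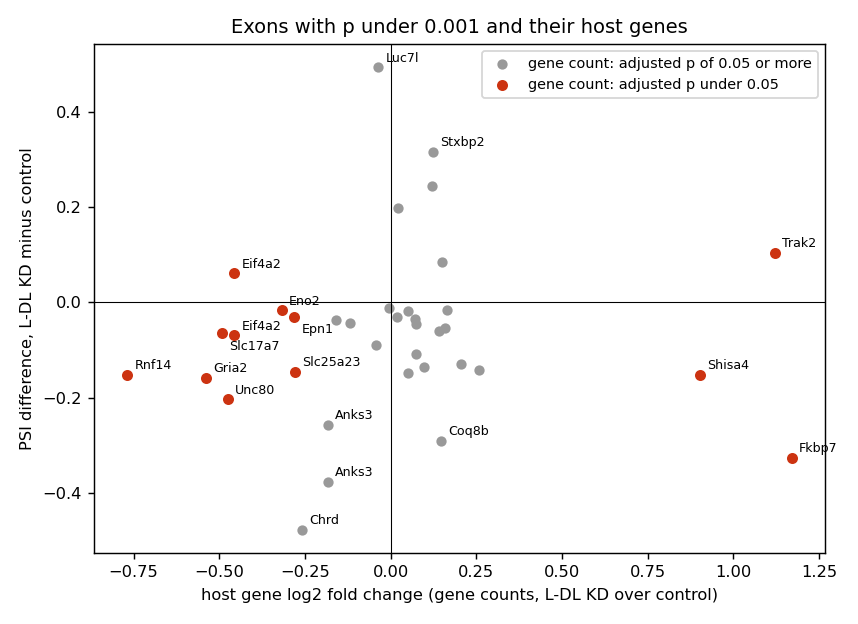
PSI difference of the 37 member exons with an unadjusted p under 0.001 against the log2 fold change of the host gene's count (libraries labelled L-DL KD over controls), 1 point per exon, red where the gene count has an adjusted p under 0.05. Lower gene counts stand beside both lower (Rnf14, Gria2, Slc17a7) and higher PSI (the 107 nt exon of Eif4a2), and the 3 genes with higher counts, Trak2, Shisa4 and Fkbp7, include both directions of PSI.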

How the data were processed

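Hippocampal RNA was compared between 3 control and 3 L-DL KD-labelled libraries. The authors aligned the reads to GRCm38 and deposited raw read counts per Ensembl gene, and the submitters' processing notes list HISAT2 (version 2.1.0), HTSeq (version 0.6.1) and Bowtie (version 1.1.2). The authors also deposited junction counts of each event's inclusion and skipping form from rMATS (version 4.1.0), with effective lengths; its p-values, FDR and PSI differences were not used. The cells of this table hold 3 values without replicate numbers, so libraries are named by position. Its first group was taken as L-DL KD from the sign of the study's PSI difference; summed over 8101 genes, its junction counts followed the gene counts with a Pearson r of 0.911 across genes, which are not independent replicates.

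Junction counts of all event types were fitted by edgeR (version 4.0.16, quasi-likelihood) in 12 columns, with an effect per library, an inclusion effect and its change between groups. Gene counts with at least 10 reads in 3 libraries were scaled by TMM and tested the same way. P-values were adjusted by Benjamini and Hochberg over all events or genes; they measure only the spread between these libraries, which may be technical, and with 3 a group an exact test could not go below 0.1. Alternatives were limma (version 3.58.1, pseudocount 0.5), DESeq2 (version 1.42.0), other minimums, TMM factors, 1 event per exon, skipped exons alone and each library left out. Scripts were tested on simulated data. Frames were followed in GENCODE M21 transcripts, and splice site bases in introns were not analysed here.

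Named exons were every member with an adjusted p under 0.05, the 10 largest falls and rises at a p under 0.001 without overlap, 4 exons per gene list and fixed splicing regulators, 1 event per exon. An exon that this rule names is not reported here. The Gria2 flop exon was added after values were seen. Members, lists and tests were chosen with earlier results of these data known.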

Additional observations from a re-analysis of the deposited data

How the results depend on the processing

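The 12 members with an adjusted p under 0.05 numbered 12 with a minimum of 10 or 50 reads and 13 with 1 event per exon. They were 23 by DESeq2 (11 of them shared with the 12), 29 without a minimum, 21 with TMM factors, 0 by limma and 0 with skipped exons alone in the fit, where 58 and 13 members had an unadjusted p under 0.001 and 662 and 558 one under 0.05. Without 1 library the number was 0 to 9. At an unadjusted p under 0.001 there were 68 members without a minimum, 58 by limma and 13 with skipped exons alone, beside 38, and 18 to 33 without 1 library. At this threshold the share with a lower PSI was between 67.4% and 87.2% in every setting run. At a p under 0.05 the count was 558 to 930 over all settings run. The share whose premature-stop form was higher was 51.2% to 65.5% without 1 library. Of the 23 exons that were called or had the largest differences, 15 moved by more than 1 SD without effective lengths. With 1 library left out, 60 refits of the 12 called exons no longer passed an adjusted p of 0.05 and 12 did. Host genes called by count numbered 754 to 1442 without 1 library and 1005 with the replicate block, beside 1160.

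No paired analysis was possible for the exons because the junction table has no replicate numbers. In the gene counts, same-numbered libraries deviated together with correlations of 0.0535, 0.127 and -0.107, so the numbers do not pair the libraries. The counts without Gria2 and without members lacking a form in a whole group, and the grouping by mean PSI, were chosen after seeing the data. The planned check of splice site bases was not run, for want of intron sequence. Counts near 0 of the minor form limit how finely PSI near 0 or 1 can be told apart.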
